A study of Mus musculus with 4 samples.

Results

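Circadian clock regulators were followed in mouse bone marrow-derived macrophages that received a bacterial stimulus with or without immune complexes. The 10 genes were Clock, Per1, Per2, Cry1, Cry2, Cipc, Bhlhe40, Nr1d1, Nr1d2 and Usp2, of 18193 genes named singly on the array. Every probe set annotated to only one gene, that gene being among the 10, was taken, which gave 19 of 45037 probe sets. The genes were picked with their difference between the stimuli already known, so their values, and where the fit across all probe sets placed them, are a description and support nothing.

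The LPS plus immune complexes group had 2 arrays, and so had the LPS group, with replicate numbers 1 and 2 in each. All cells had been raised from marrow for 7 days with 20% L-cell conditioned medium, which supplies the growth factor M-CSF, and then held overnight without it. All had been primed with interferon-gamma at 100 U/ml, overnight by the labels of the LPS plus immune complexes group and for 16 h by those of the LPS group, and washed. The first group was then given lipopolysaccharide (LPS, a bacterial cell wall component sensed by TLR4) at 10 ng/ml together with immune complexes, which are antibody bound to antigen and engage Fc gamma receptors, for 2 h. The second was given LPS alone at the same dose for 2 h. The labels name no strain, sex or age, and no unstimulated or unprimed sample was analysed here. They do not say whether replicates were separate cultures or animals, so standard errors and p-values cover only the spread between these arrays, which may be technical.

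In the mammalian clock, CLOCK pairs with BMAL1 (gene Arntl) on E-box sequences and activates its own inhibitors, the PER and CRY proteins, which feed back on the pair. A second loop runs through the nuclear receptors REV-ERB alpha and beta (Nr1d1 and Nr1d2), which repress Arntl, and the ROR receptors, which activate it. CIPC and the E-box repressor BHLHE40 (DEC1) restrain the CLOCK and BMAL1 pair further, and USP2 is a deubiquitinase whose transcript cycles in many tissues. Macrophages carry a working clock, and REV-ERB alpha is known there as a repressor of inflammatory genes.

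RefSeq promoter windows (GRCm38.p6, 250 bases before to 50 after an annotated start) were found for 8 of the 10 genes, in 12 windows. No entry was matched for Bhlhe40 and Per2. The windows below are shown because Cipc, Cry1, Usp2 and Nr1d2 read higher on both LPS plus immune complexes arrays than on both LPS arrays, while Per1 holds the same E-box as Cipc and Cry1 and its groups overlapped. Capitals mark the motifs found on either strand among the E-box CACGTG, its variant CACGTT, the cAMP response element TGACGTCA, its core TGACG (contained in the full element), the nuclear receptor half-site AGGTCA and the D-box TTATGTAA. Of the 2 windows each of Cipc and Per1, the one with the E-box is printed, and the other, which begins at 86946791 for Cipc and at 69099902 for Per1, holds the core TGACG and no E-box. The Cipc window printed lies at chr12:86947093-86947392 on the + strand, Cry1 at chr10:85185005-85185304 on the - strand, Per1 at chr11:69098699-69098998 on the + strand, Nr1d2 at chr14:18239057-18239356 on the - strand and Usp2 at chr9:44084670-44084969 on the + strand.
Cipc: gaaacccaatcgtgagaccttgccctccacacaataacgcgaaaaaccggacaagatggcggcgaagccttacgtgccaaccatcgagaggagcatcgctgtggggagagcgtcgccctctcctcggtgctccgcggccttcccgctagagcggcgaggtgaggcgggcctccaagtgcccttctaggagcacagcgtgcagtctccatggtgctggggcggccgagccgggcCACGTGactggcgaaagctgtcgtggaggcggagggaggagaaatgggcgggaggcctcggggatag
Cry1: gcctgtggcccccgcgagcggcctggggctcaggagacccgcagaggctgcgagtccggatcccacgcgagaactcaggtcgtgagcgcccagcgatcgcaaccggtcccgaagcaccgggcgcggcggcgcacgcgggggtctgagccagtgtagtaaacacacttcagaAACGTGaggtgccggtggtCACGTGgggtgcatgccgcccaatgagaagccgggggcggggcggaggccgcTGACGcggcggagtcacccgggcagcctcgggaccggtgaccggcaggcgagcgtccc
Per1: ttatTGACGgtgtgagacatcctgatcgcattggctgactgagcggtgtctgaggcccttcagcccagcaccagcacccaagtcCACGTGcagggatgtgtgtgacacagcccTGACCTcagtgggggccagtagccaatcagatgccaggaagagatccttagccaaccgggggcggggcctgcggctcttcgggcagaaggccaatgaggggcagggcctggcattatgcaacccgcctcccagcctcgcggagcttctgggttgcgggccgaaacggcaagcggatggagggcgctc
Nr1d2: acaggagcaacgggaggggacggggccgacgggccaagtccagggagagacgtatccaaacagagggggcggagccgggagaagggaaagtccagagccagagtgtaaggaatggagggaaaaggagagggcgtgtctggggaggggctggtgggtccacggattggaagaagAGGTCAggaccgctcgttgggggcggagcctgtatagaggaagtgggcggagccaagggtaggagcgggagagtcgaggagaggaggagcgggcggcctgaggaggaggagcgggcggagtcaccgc
Usp2: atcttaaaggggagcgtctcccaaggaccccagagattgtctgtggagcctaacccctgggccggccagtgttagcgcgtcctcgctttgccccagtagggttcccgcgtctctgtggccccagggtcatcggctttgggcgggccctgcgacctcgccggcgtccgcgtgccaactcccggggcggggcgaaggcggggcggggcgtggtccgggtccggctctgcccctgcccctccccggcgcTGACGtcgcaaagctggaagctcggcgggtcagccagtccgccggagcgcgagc

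The E-box CACGTG stood in 3 of the 12 windows, those of Cipc, Cry1 and Per1, and in 7.15% of all 32851 promoter windows. It began 17 bases before the start in Cipc, 60 bases before it in Cry1 and 166 bases before it in Per1. The variant CACGTT, read on the reverse strand as AACGTG, was found in Cry1, Cry2 and Nr1d1, against 4.68% of all windows. The core TGACG occurred in 6 windows of 5 genes (20.8% of all windows), the half-site AGGTCA in 3 windows (16.3%), and the full TGACGTCA and the D-box in 0 (1.79% and 0.938% of all windows). A match is a stretch of letters in a window and says nothing of a factor bound there.

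The arrays differed most at low signal, where several clock genes lie. Replicates 1 and 2 with immune complexes had median signals of 155.4 and 68.2, and those with LPS alone 88.3 and 79.6. The 5th percentile was 28.1 on LPS plus immune complexes replicate 1 and between 3.3 and 7.9 on the other arrays. All 6 macrophage markers checked (Adgre1, Csf1r, Cd68, Itgam, Lyz2 and Fcgr1) read between 729.7 and 44660. Of 4 neutrophil markers, S100a8 and Camp reached a mean signal of 69.6, the filter used for testing, and S100a9 and Elane did not, and their summed signal was 1157.7 and 1355.0 with immune complexes and 699.7 and 677.0 with LPS alone. Of 3 T cell markers only Cd8a passed that filter, with sums of 435.6 and 185.5 against 56.0 and 162.3, and the red cell gene Hba-a1 read 246.3 and 123.4 against 40.3 and 49.3. Sums of B cell, fibroblast and dendritic cell markers overlapped between the groups. The part of other cells in the results was not tested, and in such bulk RNA more cells of a type and more RNA per cell cannot be told apart.

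The clock repressors Cipc, Bhlhe40 and Cry1, together with Usp2 and Nr1d2, read higher on both LPS plus immune complexes arrays than on either LPS array. Clock itself and Cry2 overlapped between the stimuli, and so did Per1, which read low on a single LPS array, and Nr1d1, which read high on a single array with immune complexes. Signals were compared as log2(signal + 32) in limma, over the 27022 probe sets whose mean over the 4 arrays reached the 40th percentile, 69.6. A gene was represented by its brightest tested probe set. Of the 10 genes 9 passed that filter, all but Per2, with 16 of their 19 probe sets. In 3 of the 16 the LPS mean alone was under the filter, so these were tested because of their readings with immune complexes. Groups were apart, with immune complexes higher, in 5 of 9 genes, against 13.2% of the 12891 tested genes. In the other direction it was 0 of 9 genes, against 13.1%. At least 2-fold higher in both same-numbered pairs were 4 of 9, against 3.33%. The fit placed 1 of 9, Cipc, past an adjusted p of 0.05 on the higher side, against 0.0621%, and 0 of 9 on the lower side, against 0.0%. That placement varied with the arrays and the scaling, as given for Cipc below. The median log2 fold change was 1.68 over the 9 and 0.05 over all tested genes. Since the genes were picked on this contrast, nothing is read from these counts.

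**Figure D1:**
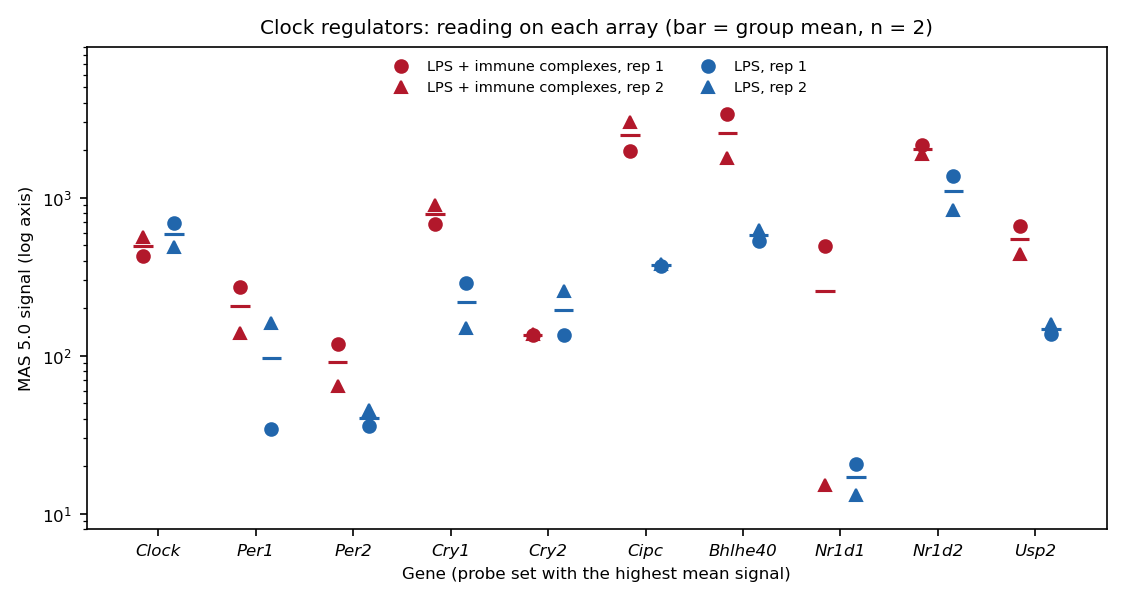
MAS 5.0 signal (log axis) of the brightest probe set of each of the 10 clock regulators on every array, with LPS plus immune complexes in red left of LPS in blue, circles for replicate 1, triangles for replicate 2 and bars for the mean of 2 arrays. Cipc, Bhlhe40, Cry1, Usp2 and Nr1d2 are apart in the 2 groups, and so is Per2 at readings of at most 119.3, whereas Nr1d1 is high on 1 array.

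Cipc, which binds CLOCK and inhibits transcription by CLOCK and BMAL1, had the largest difference of the 9 genes. Its brightest probe set, 1424915_s_at, read 1979.1 in replicate 1 and 3038.5 in replicate 2 with immune complexes, and 371.4 and 382.5 with LPS alone. Both readings with immune complexes were above both with LPS alone, and the folds in the same-numbered pairs were 5.33 and 7.94. The log2 fold change was 2.60 ± 0.39 (limma standard error, n = 2 arrays per group). The suffix of this probe set marks probes that can bind transcripts of more than one gene. The other Cipc probe sets do not carry that suffix. Probe set 1424914_at read 650.8 and 726.2 with immune complexes and 39.2 and 159.0 with LPS, a log2 fold change of 2.63 ± 0.53. Probe set 1424913_at read 454.4 and 534.4 with immune complexes and 78.8 and 7.1 with LPS, a log2 fold change of 3.0 ± 0.61. The LPS mean of 1424913_at alone, 42.9, was under the filter, so this probe set was tested because of its readings with immune complexes. All 3 probe sets of Cipc thus had groups that were apart in the same direction, though they share 1 gene and the same arrays. The brightest varied more between the arrays with immune complexes, the other 2 more, as a ratio, between the LPS arrays.

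Where the fit placed Cipc varied with the arrays and the scaling, while its log2 fold change stayed between 2.30 and 2.91 over the alternatives run. With quantile normalization the log2 fold change was 2.57 and not past the threshold. Without LPS plus immune complexes replicate 1 the log2 fold change of its brightest probe set was 2.91. It was 2.30 without replicate 2 of that group, 2.58 without LPS replicate 1 and 2.62 without LPS replicate 2. Whether Cipc was past the threshold varied with the array left out, and so did the number of all tested genes past it. In each of these fits 1 array stood alone for its group and was assumed to vary like the arrays of the other group.

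Bhlhe40, a basic helix-loop-helix repressor that competes at E-boxes and responds to many stimuli, came next in size. It read 3383.9 and 1775.8 with immune complexes and 532.4 and 624.5 with LPS. The lower of the readings with immune complexes was 2.84 times its same-numbered LPS reading, and the higher 6.36 times. The log2 fold change was 2.03 ± 0.41, and it was 1.57 without LPS plus immune complexes replicate 1 and 2.49 without replicate 2 of that group.

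The cryptochromes differed from each other. Cry1, a strong repressor of the core loop, read 677.4 and 897.5 with immune complexes and 290.6 and 150.1 with LPS, a log2 fold change of 1.74 ± 0.45. The fold was 2.33 in replicate 1 and 5.98 in replicate 2, so the fold of Cry1 was larger in the replicate in which that of Bhlhe40 was smaller. Cry2, its paralogue, read 135.1 and 136.9 with immune complexes and 135.2 and 256.4 with LPS, a log2 fold change of -0.39 ± 0.54. The groups of Cry2 overlapped, 3 of the 4 readings were nearly equal, and without LPS replicate 2 the log2 fold change was 0.01. Whether Cry1 and Cry2 respond differently was not tested.

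Of the Period genes, Per1 was higher in 1 of its pairs and Per2 lay under the filter. Per1, a PER repressor whose promoter also responds to cAMP, read 274.2 and 140.3 with immune complexes and 34.3 and 160.2 with LPS. Its LPS reading in replicate 1 stood below the other 3, and its fold was 7.99 in replicate 1 and 0.88 in replicate 2, so only 1 pair was higher. The log2 fold change was 1.02 ± 0.68, and 0.26 without LPS replicate 1. Per2, the other PER repressor measured, was below the filter with all 3 probe sets, and no fold change of it was tested. Its brightest, 1457350_at, read 119.3 and 64.2 with immune complexes and 35.8 and 45.5 with LPS. Probe set 1417603_at read 112.6 and 5.7 against 20.3 and 87.6, and 1417602_at read 51.4 and 23.1 against 27.7 and 41.9. The groups of the brightest were apart and those of the others overlapped, and the highest reading of each Per2 probe set was on LPS plus immune complexes replicate 1, the array with raised low signals.

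The REV-ERB receptors, which repress Arntl and compete with the RORs, also differed between arrays. Nr1d1 read 498.4 and 15.1 with immune complexes and 20.8 and 13.2 with LPS. It was thus high on 1 of the 4 arrays, passed the filter through that array alone, and had a log2 fold change of 1.69 ± 1.23, which was -0.05 without it. Low signals were raised in general on that array, and their part in the Nr1d1 reading was not tested. Of 5492 probe sets that read under 25 on the other 3 arrays, a limit set after the Nr1d1 readings were seen, the median on LPS plus immune complexes replicate 1 was 50 and the 95th percentile 162.5. The 1 probe set among them to reach 498.4 was Nr1d1 itself. Nr1d1 was picked with its difference known and the limit was set around its readings, so nothing is read from this. Nr1d2 read 2157.2 and 1901.1 with immune complexes and 1379.9 and 838.8 with LPS with its brightest probe set, a log2 fold change of 0.89 ± 0.38. Its groups were apart, with folds of 1.56 and 2.27 in the same-numbered pairs. The dimmer Nr1d2 probe set read 257.4 and 12.1 against 79.4 and 8.5 and followed the replicate number more than the stimulus.

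Usp2, the deubiquitinase, read 661.2 and 442.5 with immune complexes and 137.4 and 158.3 with LPS with its brightest probe set, 1417168_a_at. The folds were 4.81 and 2.80 in replicates 1 and 2, and the log2 fold change was 1.68 ± 0.44. The other probe set, 1417169_at, read 119.4 and 593.2 against 57.7 and 333.8, a log2 fold change of 0.76 ± 0.75. There the groups overlapped, and replicate 2 had the higher reading in each group. Each same-numbered pair was higher with immune complexes, by 2.07 and 1.78 times, though the labels do not say that the numbers pair the arrays.

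Clock, the activator on which these repressors act, showed no common direction among its 4 probe sets. The brightest, 1418659_at, read 427.6 and 562.6 with immune complexes and 696.0 and 489.4 with LPS, a log2 fold change of -0.24 ± 0.41. The others had log2 fold changes of -0.48 ± 0.55, 0.41 ± 0.60 and -0.11 ± 0.59. In the last of these, 1439314_at, the groups were apart by a narrow margin, at 115.1 and 118.6 with immune complexes and 132.0 and 126.3 with LPS.

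**Figure D2:**
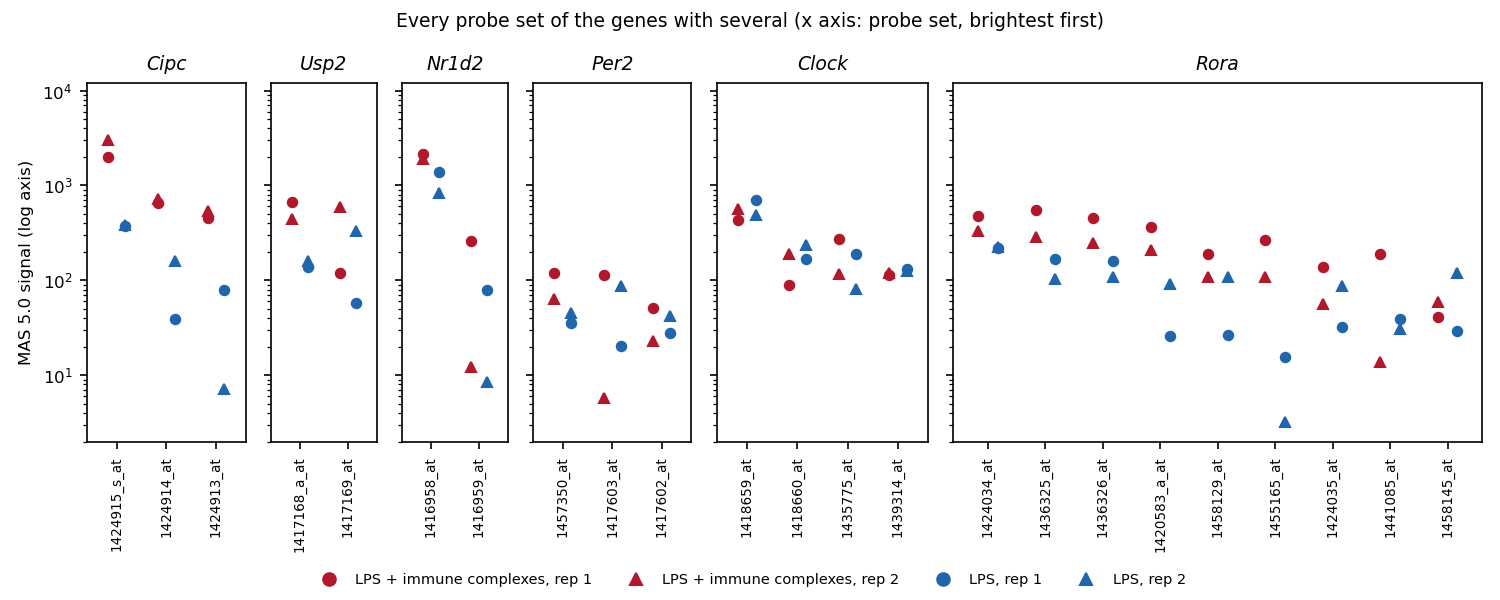
MAS 5.0 signal (log axis) on every array for each probe set of the clock genes with several, and of Rora, with LPS plus immune complexes in red left of LPS in blue, circles for replicate 1 and triangles for replicate 2. The 3 Cipc probe sets are apart in the same direction, whereas those of Usp2, Nr1d2, Per2 and Clock do not all separate the groups alike.

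Shown pair by pair, the clock regulators showed separate patterns. Cipc, Bhlhe40, Cry1, Usp2, Nr1d2 and, at 0.06 in replicate 2, Nr1d1 were above 0 in both same-numbered pairs, which is 6 of 9 genes, against 26.7% of all tested genes. In replicate 1 the log2 differences were 2.32 for Cipc, 2.60 for Bhlhe40, 1.14 for Cry1, 2.03 for Usp2 and 0.63 for Nr1d2, while the median of all tested genes was 0.15. In replicate 2 they were 2.89 for Cipc, 1.46 for Bhlhe40, 2.35 for Cry1, 1.32 for Usp2 and 1.15 for Nr1d2, while the median of all tested genes was -0.08. Per1 had 2.21 in replicate 1 and -0.16 in replicate 2, and Nr1d1 had 3.33 in replicate 1. These genes with a large difference in replicate 1 alone had LPS readings of at most 160.2 on every array.

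**Figure D3:**
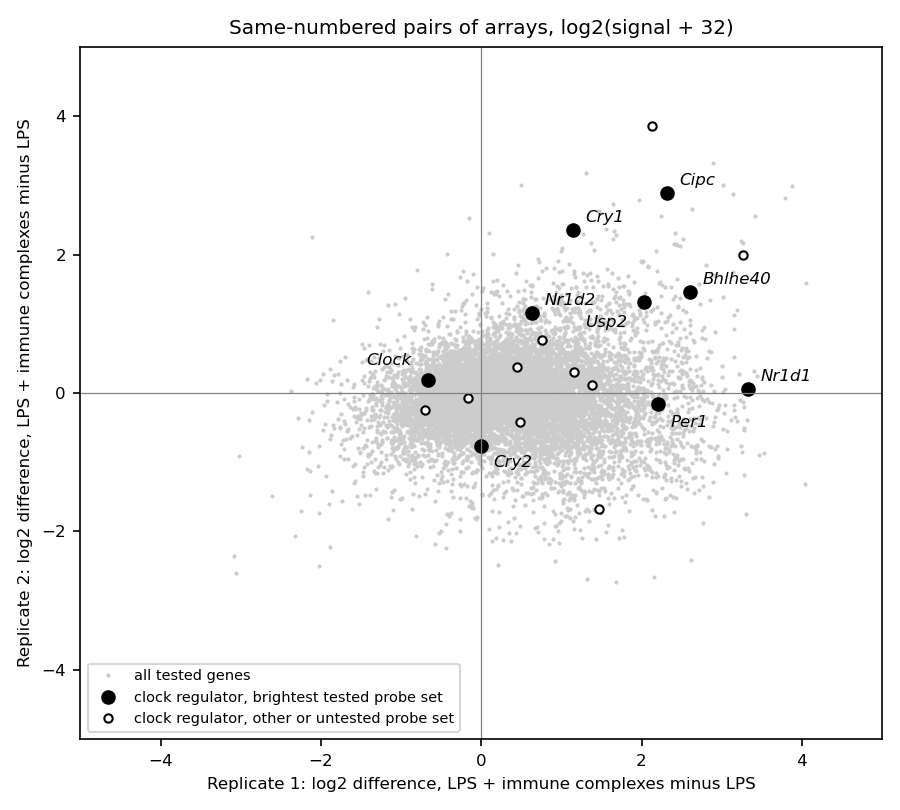
Log2 difference of LPS plus immune complexes minus LPS in the replicate 1 arrays (x axis) and in the replicate 2 arrays (y axis), for the brightest tested probe set of the clock regulators (filled), their other or untested probe sets (open) and all 12891 tested genes (grey). Cipc, Bhlhe40, Cry1, Usp2 and Nr1d2 lie above 0 on both axes, while Per1 and Nr1d1 lie far out on the replicate 1 axis only.

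Genes of the wider clock were listed by role, with earlier results of these data known and without the regulators picked for their difference. These listed genes did not share a direction. Leaving out those regulators can itself keep differences out of the list, so its counts say nothing about the clock as a whole. Of 36 found on the array 34 were tested, and with limma 0 were higher and 0 lower at an adjusted p under 0.05, against 0.0621% and 0.0% of all tested genes. At an unadjusted p under 0.05 it was also 0 of 34, against 3.13%. Their median log2 fold change was -0.01, against 0.05 over all tested genes, with 17 above 0 and 17 below. Groups were apart with immune complexes higher in 3 of 34 (13.2% of all tested genes) and lower in 9 of 34 (13.1%). The 3 were Arntl2, Timeless and Rora. The LPS means of Arntl2 (48.4) and Timeless (29.0) were under the filter of 69.6. Both were thus tested because of their readings with immune complexes. The 9 were Arntl, Dbp, Nfil3, Csnk1a1, Fbxw11, Nono, Crebbp, Ep300 and Crtc1, with log2 fold changes from -0.61 to -0.05. Dbp was apart by a narrow margin, at 141.3 and 130.9 with immune complexes and 142.3 and 142.0 with LPS. Its dimmer probe set was apart in the other direction, at 234.9 and 87.9 against 85.8 and 59.0, a log2 fold change of 0.79 ± 0.70. The list median was -0.16 without LPS plus immune complexes replicate 1 and 0.11 without replicate 2 of that group.

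Among the partners of CLOCK, Arntl, which encodes BMAL1, read 170.4 and 206.1 with immune complexes and 358.3 and 239.3 with LPS, a log2 fold change of -0.57 ± 0.46. Its dimmer probe set had 0.47 ± 0.57, so the Arntl probe sets lay on opposite sides of 0. Arntl2, a paralogue of Arntl, had 0.80 ± 0.83. Npas2, which can replace CLOCK, was below the filter. Among the genes listed here as other repressors, Timeless, with 1.54 ± 0.95, read 227.8 and 74.9 against 49.5 and 8.5. Its other probe set had -0.16 ± 0.96. Bhlhe41 (DEC2), the paralogue of Bhlhe40, read 360.2 and 168.0 with immune complexes and 64.6 and 182.9 with LPS, a log2 fold change of 0.96 ± 0.59. Unlike Bhlhe40, its groups overlapped.

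Rora, the ROR receptor that activates Arntl, was measured by 9 probe sets, of which 7 were tested. Its brightest, 1424034_at, read 471.4 and 331.5 with immune complexes and 219.8 and 226.4 with LPS, a log2 fold change of 0.75 ± 0.44. In 6 of the 7 tested probe sets the readings with immune complexes were above those with LPS, against 13.6% of all tested probe sets. Their log2 fold changes ran from 0.49 to 2.32 over the 7. With limma 0 of the 7 passed an adjusted p of 0.05, against 0.0444% higher over all probe sets, and 4 had an unadjusted p under 0.05, against 2.81%. In 4 of the 7 the LPS mean alone was under the filter, so they were tested because of their readings with immune complexes, and these 4 include 3 of the 6 whose groups were apart and 2 of the 4 with an unadjusted p under 0.05. The probe sets were singled out after their values were seen and share 1 gene, so nothing is read from these counts. In each of the 6, the highest reading was on LPS plus immune complexes replicate 1. Rorb, a ROR of the nervous system, read 256.6 and 4.9 against 31.4 and 39.5 and was thus high on that same array only.

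No output factor, and no enzyme or cofactor that acts on clock proteins, passed the test. Of the PAR bZIP group, Hlf read 263.1 and 10.2 with immune complexes and 13.5 and 38.7 with LPS, a log2 fold change of 0.98 ± 1.26, so it was high on the array on which Nr1d1 and Rorb were high. Nfil3 (E4BP4), a repressor at D-boxes, read 5074.2 and 5671.1 with immune complexes and 6401.4 and 7015.9 with LPS, a log2 fold change of -0.32 ± 0.29. Among kinases, Csnk1a1 had -0.41 ± 0.29 and Prkaa1, a subunit of AMPK, -0.38 ± 0.49. The ubiquitin ligase subunits Btrc and Fbxw11, which target PER proteins, had 0.38 ± 0.54 and -0.32 ± 0.25. The dimmer tested probe sets of Fbxw11 ran from -0.28 ± 0.30 to 0.27 ± 0.66. Among them, the groups of 1425462_at were apart with immune complexes lower, and those of 1447294_at with immune complexes higher. Of the cofactors, Ep300 and Nono had -0.56 ± 0.38 and -0.37 ± 0.27. In the CREB arm that acts on the Per genes, Crtc1, a CREB coactivator, had -0.61 ± 0.48 and Creb1 itself -0.48 ± 0.44. The dimmer tested probe sets of Crtc1 lay on the other side of 0, at 1.03 ± 0.74 and 0.36 ± 0.76. Those of Creb1 ran from -0.42 ± 0.37 to 0.08 ± 0.49.

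**Figure D4:**
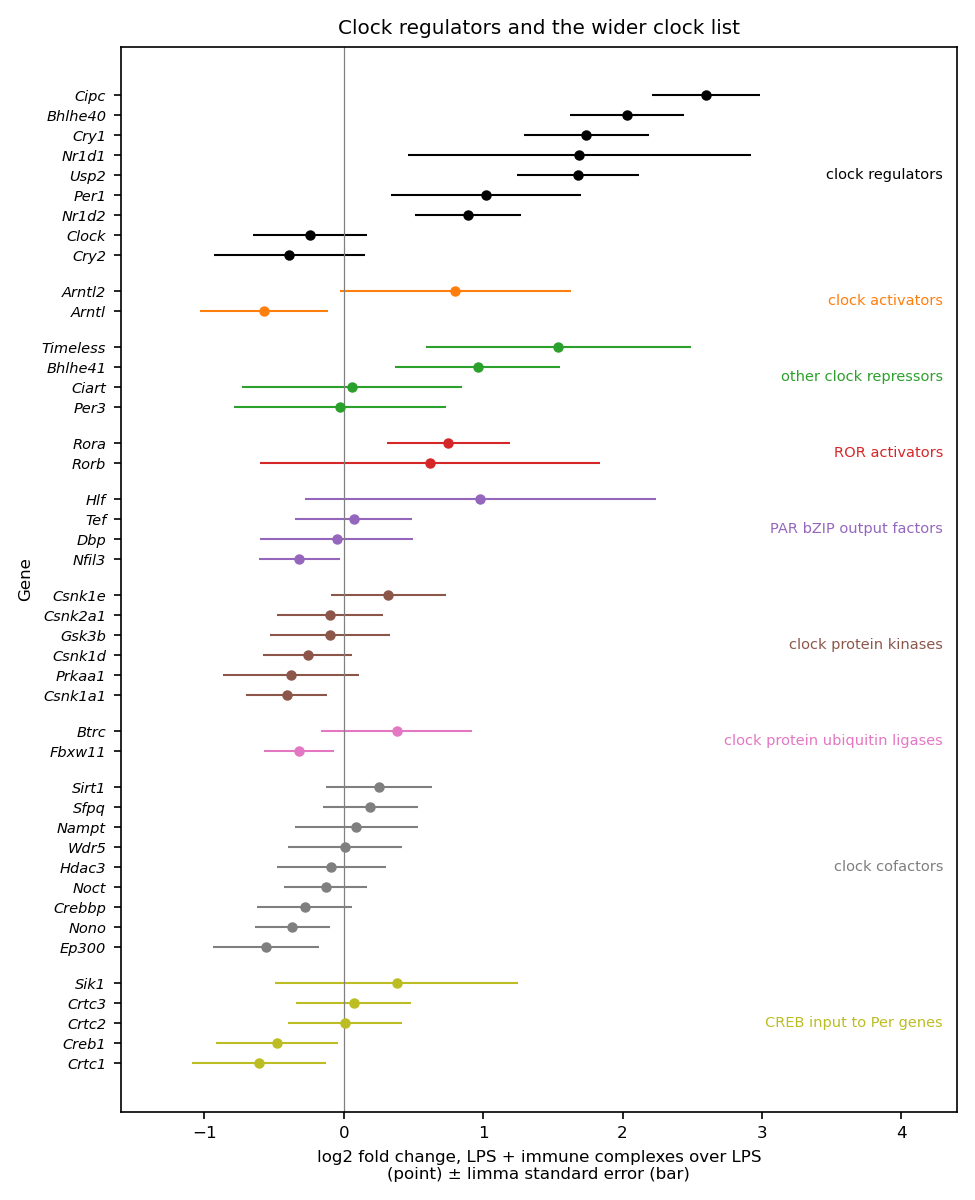
Log2 fold change of LPS plus immune complexes over LPS (point) with limma's standard error (bar) for the 9 tested clock regulators and the 34 tested genes of the wider clock, by role. The wider clock has 17 genes on each side of 0, and its widest bars belong to dim genes such as Hlf and Rorb.

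By the pattern over the 4 arrays, the genes nearest to Cipc were 1700017B05Rik, Tent5c and Csf3, with root mean square differences of 0.24, 0.26 and 0.27 between their centred log2 signals. 1700017B05Rik read 1328.7 and 1515.3 with immune complexes and 206.0 and 297.7 with LPS. Nearest to Per1 were Gm614, Ramp2 and Adcy6, at 0.07, 0.07 and 0.08. With 4 arrays such likeness is only a description.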

How the data were processed

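Biotin-labelled total RNA of 4 samples was measured on a mouse Affymetrix array with 45037 probe sets and 64 controls. The deposited values are intensities on a linear scale. The submitters' processing notes name MAS 5.0 as the tool with which the authors made them. MAS 5.0 scales each array as a whole, which leaves differences at low signal. The number of arrays limits the precision.

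Groups and replicate numbers came from the sample titles. GEO's annotation of the platform gave the gene names. It ties 34945 probe sets to 1 gene, 932 to several and 9160 to none. Of the first, 34741 matched RefSeq's GRCm38.p6 gene table by gene ID, with 0 symbols changed. Controls and probe sets with a mean signal under the 40th percentile (69.6) were left out. The rest was fitted as log2(signal + 32), which understates changes of dim probe sets, with limma 3.58.1 (R 4.3.3), lmFit and eBayes with a variance trend, two-sided, without a block, with Benjamini-Hochberg adjustment over all 27022 probe sets. Fold changes in the same-numbered pairs are ratios of signals. The code of the fit was run on simulated arrays with the same spread for all probe sets and large changes. That run does not bear on the raised low signals.

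The clock regulators, the wider list and the rules for naming genes were chosen with earlier results of these data known. Named were all 10 regulators with every probe set, genes of the wider list that passed, the up to 2 largest per role, and the 3 nearest in pattern to Cipc and to Per1. Rora's probe sets, and other genes or probe sets given beside these, were named after their values were seen. Alternatives were quantile normalization, median centring, a pseudocount of 1 or 100, no filter or a 60th percentile filter, no variance trend, the replicate number as a block, averaging all tested probe sets of a gene, and leaving out each array.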

Additional observations from a re-analysis of the deposited data

How the results depend on the processing

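The counts of calls depended on the processing, while the direction of Cipc, Cry1, Bhlhe40, Usp2, Per1 and Nr1d2 did not change under any of the 13 alternatives. Their log2 fold changes ranged from 2.30 to 2.91, 1.33 to 2.16, 1.57 to 2.49, 1.22 to 1.95, 0.26 to 1.79 and 0.54 to 1.24. Nr1d1 ranged from -0.05 to 3.44 over its 12, Cry2 from -0.78 to 0.01 and Clock from -0.48 to 0.00. Against 12 probe sets higher and 2 lower, 0 and 0 were called with quantile normalization and without the variance trend, 33 and 14 with median centring, 6 and 0 with a pseudocount of 100, 4 and 0 with the 60th percentile filter and 68 and 21 without a filter. With a pseudocount of 1, 20 were higher. Of the clock regulators, 0 were higher with quantile normalization, a pseudocount of 100, the 60th percentile filter or no variance trend. Of all tested genes these settings called 0, 3, 2 and 0 higher. With no filter or the mean over probe sets 2 regulators, Cipc and Bhlhe40, were higher, against 1. Of all tested genes it was then 37 of 18193 and 22 of 12891, against 8 of 12891. Leaving out 1 array gave 0 to 77 probe sets higher, 0 to 32 lower, 0 to 2 clock regulators higher and medians of the wider clock from -0.16 to 0.11. That median was -0.20 with median centring, where all tested genes had -0.15. No gene of the wider clock was called under any alternative. The causes were not tested.

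With the replicate block 404 probe sets were higher and 267 lower. By gene, 5 of 9 clock regulators (Cipc, Cry1, Bhlhe40, Usp2 and Nr1d2) were called higher, against 224 of all 12891 tested genes. Deviations of same-numbered arrays from their group means correlated at 0.38 across probe sets, but the labels do not say that a number marks a shared culture or day, and with 2 pairs they were not taken to pair the samples, so whether anything else is shared is not known. Limma's prior had infinite degrees of freedom with the block, with median centring and without either LPS array, which leaves out the individual spread of each probe set in those counts. Without an array, the lone array of a group was assumed to vary like those of the other. Low signals were raised on LPS plus immune complexes replicate 1, and what this does to dim genes was not tested.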
